A study of Mus musculus with 9 samples.

Results

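The signal transducers and activators of transcription (STATs) were followed in murine Tc17 cells, which are CD8+ T cells that produce IL-17. The members were taken as every row of the deposited expression table with 1 of the symbols Stat2, Stat3, Stat4, Stat5a, Stat5b and Stat6, which gave 6 of 41388 genes. All 6 passed the filter for a mean normalized count of at least 10. Naive CD62L+CD44-CD8+ T cells of C57BL/6 mice, sorted from lymph node and spleen, were activated through CD3 and CD28 for 48 h with TGF-β, IL-6, a blocking antibody to IFN-γ and 50 U/ml human IL-2. Control cultures (Ctrl) received 0.2% DMSO, the solvent. The second group received 20 µM dimethyl fumarate (DMF), an electrophile that consumes the antioxidant glutathione, and the third received 20 µM DMF with 50 µM reduced glutathione (DMF + GSH). Each group had 3 libraries, numbered as replicates 1 to 3. Replicate 1 formed preparation batch 1 and replicates 2 and 3 formed batch 2. Neither the labels nor the methods say whether the libraries of a group came from separate mice, so the p-values measure the spread between these samples.

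STATs carry cytokine signals from the cell surface to the nucleus. Receptor-bound Janus kinases (JAKs) phosphorylate a tyrosine near the end of a STAT, and the STATs then pair and bind DNA. In T cells, IL-2 and IL-7 act mainly through STAT5A and STAT5B, IL-6, IL-21 and IL-23 through STAT3, IL-12 through STAT4, IL-4 through STAT6, and type I interferon through a complex that holds STAT2. STAT3 drives the IL-17 programme, and STAT5 opposes it at Il17. The values below are RNA levels and say nothing of phosphorylation.

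With DMF, Stat4 had the largest log2 fold change in size among the members. Stat5a rose and Stat2 fell, so that 2 of 6 members were called, beside 28.0% of all genes tested. Both calls were lost without any 1 of Ctrl replicates 1 or 2 or DMF replicates 1 or 3 (limma, adjusted p 0.0891 to 0.251), with only the 6 libraries compared (0.0512 for Stat5a and 0.0778 for Stat2) and with no minimum mean (0.0541 and 0.0553). Calls over all 11599 genes also dropped, from 3242 to 628 or 1162 without Ctrl replicate 1 or 2. They were 110 or 953 without DMF replicate 1 or 3. The mean of Stat4 in DMF was 251 ± 72.3 against 479 ± 159 in Ctrl (normalized counts, mean ± SD, n = 3), lower in each of the 3 replicate numbers. Of all genes tested, 66.3% kept 1 direction in all 3 numbers. The difference of Stat4 passed the test with replicate numbers paired and not with the batch term (limma, adjusted p 9.32e-08 and 0.0532). Stat3, Stat5b and Stat6 did not pass in either fit. Between DMF + GSH and Ctrl, 0 of the 6 members were called, beside 0 of all 11599 genes tested. Since the cultures were measured in bulk, fewer cells of a type and less RNA per cell cannot be told apart.

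The members form neighbouring groups in the mouse genome (GRCm38, GENCODE vM21). Stat5b (chr11:100780731-100850724, minus strand), Stat5a (chr11:100859351-100885169, plus strand) and Stat3 (chr11:100885098-100939540, minus strand) lie side by side. There are 8626 bases between Stat5b and Stat5a, and the 3′ ends of Stat5a and Stat3 overlap by 72 bases on opposite strands. Stat6 (chr10:127642986-127660957, plus strand) and Stat2 (chr10:128270559-128292849, plus strand) share chromosome 10 at a distance of 609601 bases. Stat4 (chr1:51987148-52107189, plus strand) lies apart. Of the 3 neighbours on chromosome 11, Stat5a rose with DMF, and Stat5b and Stat3 did not pass the test.

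Stat5a and Stat5b are close copies, and this bears on how well their reads can be told apart. Their coding sequences (transcripts Stat5a-201 and Stat5b-201) were identical at 2128 of 2341 aligned bases, or 90.9%. The longest run they share is 324 bases, at coding positions 571 to 894 in both, and a read of 50 bases from it fits either gene. Of the 50-base stretches of Stat5a transcripts, 14.7% also occurred in Stat5b, and 11.1% of those of Stat5b occurred in Stat5a. A part of either gene's count is thus uncertain, since the sources used here do not say how reads that fit several genes were treated. The stretch around the codon for the tyrosine that JAKs phosphorylate (TAC, in capitals) is shown as the part both proteins need for activation and as an example of how little they differ, at 1 of 33 bases.
Stat5a, coding bases 2065 to 2097: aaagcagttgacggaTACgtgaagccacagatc
Stat5b, coding bases 2080 to 2112: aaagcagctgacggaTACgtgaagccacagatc
Stat2 and Stat6 shared no 50-base stretch with another gene (0 of 4335 and 0 of 3772). Stat3 shared 0.364% of its stretches, all with Stat5a. In Stat4, 27.1% were shared with Gm28177, a noncoding transcript on the same strand with a mean normalized count of 1.16. Reads from these stretches fit both genes, so a part of the Stat4 count, and its level per kb, is uncertain in the same way. The library kit (NEBNext Ultra) does not mark strand, so reads from the 72 bases shared by Stat5a and Stat3, or from the 40 bases at the end of Stat6 shared with Nab2 on the other strand (mean normalized count 693), cannot be assigned by strand.

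Promoters of Stat2 and Stat5a, which were called with DMF, and of Stat4, which was called in the paired fit, are shown as annotated by RefSeq (GRCm38.p6), from 250 bases before the start to 50 bases after it. Promoters of all 6 members were found, with 2 starts each for Stat4, Stat5a and Stat5b, and both strands were searched for 4 motifs. For Stat4 and Stat5a the start that held a match is printed, and the other held a match to 0 of the 4 motifs. The STAT site GAS (TTCNNNGAA) occurred in 0 of these promoters and in 8.3% of all 32851 promoters of that length. The interferon-stimulated response element ISRE (GAAA, any 2 bases and GAAA again), which the STAT2 complex binds, is in capitals in Stat2 and in the downstream start of Stat4. A T-box half-site (AGGTGTGA), the motif of T-BET and its relatives, is in capitals in the upstream start of Stat5a.
Stat2 (chr10:128270248-128270547, plus strand): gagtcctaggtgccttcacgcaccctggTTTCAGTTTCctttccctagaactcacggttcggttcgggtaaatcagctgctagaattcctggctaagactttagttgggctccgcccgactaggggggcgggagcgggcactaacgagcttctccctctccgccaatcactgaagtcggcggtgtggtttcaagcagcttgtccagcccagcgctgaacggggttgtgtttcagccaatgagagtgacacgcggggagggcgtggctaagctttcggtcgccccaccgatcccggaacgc
Stat4, downstream start (chr1:52007990-52008289, plus strand): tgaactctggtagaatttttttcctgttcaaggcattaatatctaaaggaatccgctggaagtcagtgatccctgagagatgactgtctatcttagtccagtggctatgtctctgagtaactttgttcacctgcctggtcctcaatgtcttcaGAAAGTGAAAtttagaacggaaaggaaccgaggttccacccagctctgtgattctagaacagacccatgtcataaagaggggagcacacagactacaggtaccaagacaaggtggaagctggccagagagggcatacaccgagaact
Stat5a, upstream start (chr11:100859406-100859705, plus strand): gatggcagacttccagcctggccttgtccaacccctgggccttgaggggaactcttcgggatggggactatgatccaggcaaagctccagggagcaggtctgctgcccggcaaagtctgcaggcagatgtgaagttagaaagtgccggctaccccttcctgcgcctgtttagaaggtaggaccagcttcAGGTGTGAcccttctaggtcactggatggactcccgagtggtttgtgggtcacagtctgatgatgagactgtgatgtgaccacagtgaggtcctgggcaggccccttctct
The ISRE match TTTCAGTTTC of Stat2 runs from -222 to -213 relative to the start, and GAAAGTGAAA of Stat4 from -97 to -88. The match in Stat5a runs from -61 to -54. Among all promoters, 3.44% held an ISRE and 1.28% this T-box half-site. The core of the antioxidant response element (TGACNNNGC, in 12.4% of all promoters), which NRF2 binds, occurred in 0 of the members' promoters. ISRE, T-box and antioxidant motifs were chosen after values had been seen. A match describes letters and not binding, and which start these cells used was not measured.

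The cell identity was checked against markers. Cd8a, Cd8b1, Cd3d, Cd3e and Cd3g were all present, with a sum of 21456 to 28119 over the libraries. These genes differed in direction with DMF, and their test results are not given here. Cd3g had 3593, 4186 and 2763 normalized counts (Ctrl) and 2303, 2811 and 2121 (DMF), Cd3d and Cd3e were also lower with DMF in each replicate number, and Cd8a was higher, with 10599, 10356 and 9483 (Ctrl) and 13778, 13103 and 10923.0 (DMF). Cd8b1 was lower with DMF in replicate 1 and higher in replicates 2 and 3. Cd4 was at most 4.40, and erythroid markers were at 0. B cell markers summed to at most 14.6 and NK cell markers to at most 4.16. The 3 myeloid markers measured (Lyz2, Csf1r and Cd14) summed to 182 in Ctrl replicate 3 and to at most 18.4 in the other libraries. That library was also the shallowest, with 7671772 reads where the deepest had 14511926, and held the lowest Ctrl value of 5 of the 6 members (all but Stat3). Without it the log2 fold changes with DMF were -0.47 for Stat2 (limma, adjusted p 0.0147), -1.18 for Stat4 (0.0184) and 0.25 for Stat5a (0.0681), and whether the myeloid RNA itself plays a part in them was not tested.

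Between members, levels were compared as normalized counts per kb of annotated exon. In Ctrl, Stat3 stood at 686 ± 37.8, Stat6 at 641 ± 30.8 and Stat5b at 640 ± 24.0 per kb (mean ± SD, n = 3). The ranges of these 3 members overlapped, so their order is not resolved. Stat5a followed at 259 ± 10.6 per kb, separate from Stat5b above it and from the members below. Stat4 at 124 ± 41.0 and Stat2 at 103 ± 13.3 per kb were the lowest, and their ranges overlapped. With DMF, Stat2 at 79.6 ± 9.45 stood above Stat4 at 64.9 ± 18.7 per kb, again with overlapping ranges. Whether the ranges of the members above them overlap depends on the exons counted, while their order was the same. Over the exons of protein-coding transcripts, a length chosen after the values were seen, Stat3 (1050.1 per kb), Stat6 (748 per kb), Stat5b (640 per kb) and Stat5a (450.5 per kb) did not overlap in Ctrl. On that scale Stat5a in DMF reached 548 ± 57.3 per kb, and its range of 481 to 581 overlapped that of Stat5b, 564 to 639.

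**Figure D1:**
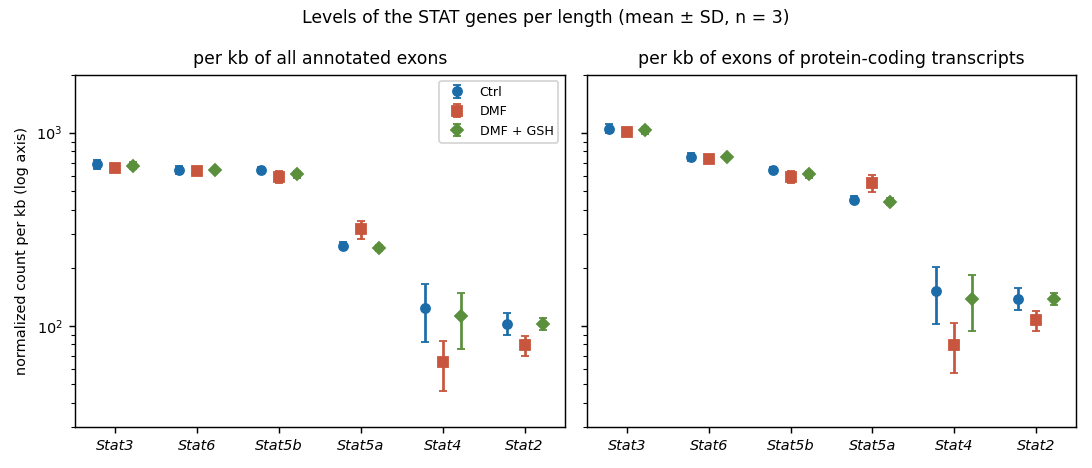
Normalized counts of the 6 STAT genes per kb of exon on a log axis (points are means and bars SD of 3 libraries; circles Ctrl, squares DMF, diamonds DMF + GSH), over all annotated exons on the left and over exons of protein-coding transcripts on the right. Stat3, Stat6 and Stat5b lead on either scale, Stat5a lies between, and Stat4 and Stat2 are lowest.

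Whether DMF altered the family was tested with limma in 1 fit of 9 libraries with the batch as covariate, over 11599 genes, and a gene was called at a Benjamini-Hochberg adjusted p under 0.05. Of the 6 members, 2 were called, beside 28.0% of all genes tested (1698 rose and 1544 fell). Deviations from the group means were shared by libraries of equal number, and a paired fit (replicate block in place of batch) is added where it changes the call of a member or the count of a list described. In the paired fit 3 of 6 members were called, beside 45.0% of all genes. The members' share was thus near the background in either fit. Under a stricter rule (adjusted p below 0.01, log2 fold change of 0.75 or more in size), which 2.89% of genes passed, 0 members passed in the batch fit. In the paired fit only Stat4 passed it, beside 6.8% of genes.

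Stat5a, which mediates IL-2 signals, rose with DMF. In replicates 1, 2 and 3, its normalized counts were 1927, 1848 and 1776 (Ctrl), 2388, 1977 and 2382 (DMF) and 1725, 1841 and 1850 (DMF + GSH). All 3 DMF libraries lay above all 6 others, with replicate 2 closest to them. Groups that do not overlap were found for 41.3% of all genes in DMF against Ctrl. The log2 fold change was 0.28 ± 0.0833 (SE), with an adjusted p of 0.0342 in limma. Against DMF, Stat5a was lower with DMF + GSH by a log2 fold change of -0.31 ± 0.0833, and it was the member called there (limma, adjusted p 0.0278). Within replicate numbers the rise with DMF was 0.31, 0.10 and 0.42 on the log2 scale, higher in 3 of 3. The rise was not called without any 1 of Ctrl replicates 1, 2 or 3 or DMF replicates 1 or 3 (limma, adjusted p 0.0681 to 0.178), whereas the paired fit called it without each of the 9 libraries in turn (limma, highest adjusted p 0.0323). The fall with DMF + GSH was not called without DMF replicates 1 or 3 or DMF + GSH replicates 1 or 2 (limma, adjusted p 0.0771 to 0.161).

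Stat5b, the more abundant copy, was not called. Its normalized counts were 3566, 3669 and 3406 (Ctrl), 3125, 3133 and 3539 (DMF) and 3229, 3400 and 3493 (DMF + GSH). In DMF, replicates 1 and 2 lay below all other libraries and replicate 3 lay within the range of Ctrl. The log2 fold change of DMF against Ctrl was -0.12 (95% interval -0.27 to 0.03, limma, adjusted p 0.211), and 0.0956 in the paired fit (limma, adjusted p). Without Ctrl replicate 3 or without DMF replicate 3 the paired fit called it (limma, adjusted p 0.0198 and 0.0278). The log2 ratio of Stat5a to Stat5b, examined after these values were seen, had means of -0.94 ± 0.0509 in Ctrl, -0.54 ± 0.140 in DMF and -0.90 ± 0.0161 in DMF + GSH. It was higher in all DMF libraries than in all others, and the difference from Ctrl was 0.50, 0.33 and 0.37 in replicates 1, 2 and 3. The exact permutation test of DMF against Ctrl gave p = 0.1 (two-sided), the smallest that 3 against 3 libraries allow.

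Stat4, which carries IL-12 signals in type 1 T cells, had the largest log2 fold change in size among the members with DMF. Its normalized counts were 491, 631 and 314 (Ctrl), 253, 323 and 178 (DMF) and 468, 556 and 281 (DMF + GSH). Replicate 2 was highest and replicate 3 lowest in each group, so that Ctrl and DMF overlapped although DMF was lower within each number. The log2 differences of DMF from Ctrl were -0.95, -0.96 and -0.82 in replicates 1, 2 and 3. In the fit with batch the log2 fold change was -0.91 ± 0.312 (SE) and did not pass (limma, adjusted p 0.0532). With the replicate block its SE was 0.0835 and Stat4 fell (limma, adjusted p 9.32e-08). Against DMF, the log2 fold change of DMF + GSH was 0.77, with an adjusted p of 0.0984 with batch and 8.44e-07 with the replicate block (limma). The batch fit called Stat4 with DMF once Ctrl replicate 3, DMF replicate 2 or DMF + GSH replicates 2 or 3 was left out (limma, adjusted p 0.0184 to 0.0414). Over the 10 alternatives that kept all libraries of the comparison, its adjusted p ran from 3.61e-08 to 0.0541 (limma or edgeR).

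Stat2, which joins IRF9 in the complex that type I interferon activates, fell with DMF. Its normalized counts were 672, 631 and 520 (Ctrl), 424, 533 and 457 (DMF) and 647, 606 and 561 (DMF + GSH). In DMF, replicate 1 was lowest, and replicate 2 at 533 lay above Ctrl replicate 3, so these groups overlapped, whereas DMF and DMF + GSH did not. Groups without overlap made up 38.3% of all genes in DMF + GSH against DMF. The log2 fold change of DMF against Ctrl was -0.36 ± 0.119 (SE), with an adjusted p of 0.0459 in limma, and 0.00236 with the replicate block. Within replicate numbers it was -0.66, -0.24 and -0.19. For DMF + GSH against DMF it was 0.36 ± 0.119, with an adjusted p of 0.0540 with batch and 0.00279 with the replicate block (limma). The fall with DMF was not called without any 1 of Ctrl replicates 1 or 2, DMF replicates 1 or 3, or DMF + GSH replicates 1 or 2 (limma, adjusted p 0.0592 to 0.251). Without DMF replicate 1 the log2 fold change was -0.23 with DMF and 0.23 for DMF + GSH against DMF, in the batch and the paired fit. In DMF + GSH against DMF, Stat2 was called once Ctrl replicate 3 or DMF replicate 2 was left out, and Stat4 once DMF replicate 2 or DMF + GSH replicate 3 was left out (limma, adjusted p 0.0174 to 0.0389).

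**Figure D2:**
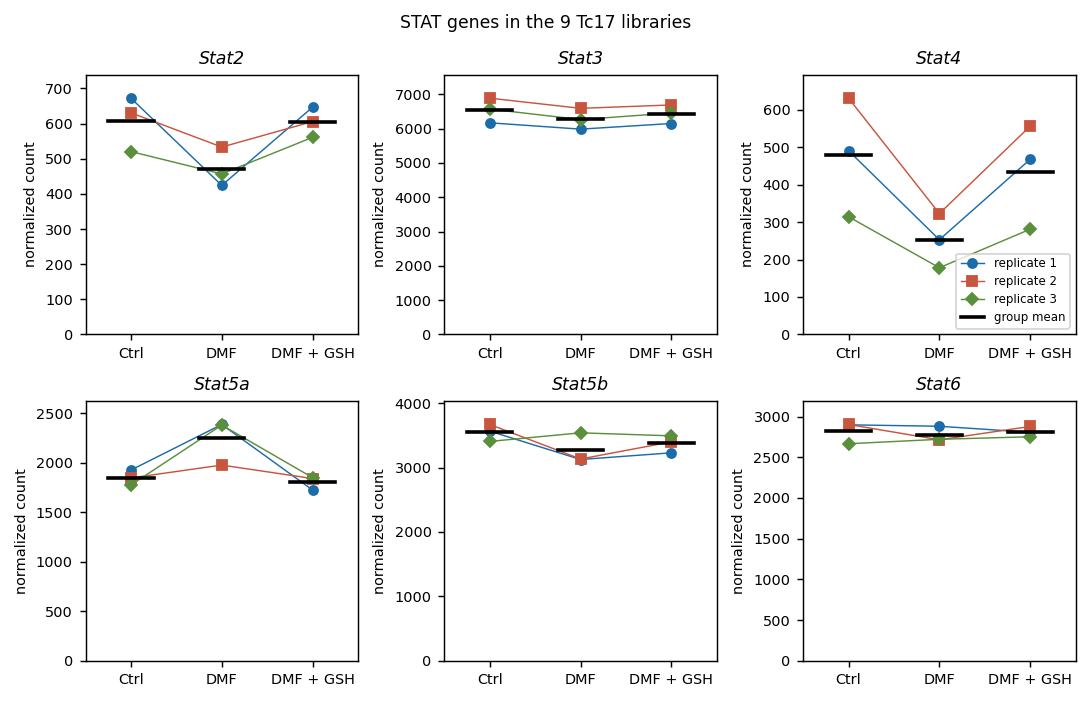
Normalized counts of the 6 STAT genes in the 9 libraries, by group (circles, squares and diamonds are replicates 1, 2 and 3, joined by lines, and black bars are group means). Stat4 and Stat2 are lower and Stat5a is higher in DMF than in either other group within each replicate number, and Stat3 and Stat6 lie nearly flat.

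Stat3, the IL-6 and IL-21 transducer on which IL-17 production depends, was the member with the highest count. Its normalized counts were 6167, 6885 and 6567 (Ctrl), 5983, 6589 and 6262 (DMF) and 6147, 6688 and 6452 (DMF + GSH). Each DMF library was below its numbered partner in Ctrl, by 0.04, 0.06 and 0.07 on the log2 scale, and the groups overlapped. The log2 fold change was -0.06 with a 95% interval of -0.19 to 0.07 (limma, adjusted p 0.485). Stat6, the IL-4 transducer, measured 2899, 2903 and 2666 (Ctrl), 2881, 2715 and 2721 (DMF) and 2807, 2878 and 2752 (DMF + GSH). Its groups overlapped, and the log2 fold change of DMF against Ctrl was -0.03 with an interval of -0.16 to 0.11 (limma, adjusted p 0.780). In DMF + GSH against DMF the log2 fold changes were 0.03 for Stat3 (interval -0.10 to 0.17), 0.05 for Stat5b (-0.11 to 0.20) and 0.02 for Stat6 (-0.12 to 0.16), and none of these 3 members was called (limma, adjusted p 0.640 to 0.830).

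DMF + GSH against Ctrl asked whether added glutathione brought the members back to the control. No member was called (0 of 6, limma, adjusted p 0.99997 for each), beside 0.0% of all genes (0.0345% in the paired fit), and 222 genes had an unadjusted p under 0.05. edgeR with batch called 0 genes and the paired limma fit 4, none of them a member. The log2 fold changes ran from -0.14 for Stat4 to -0.00 for Stat2 and Stat6, and their 95% intervals show what was resolved. The interval was -0.22 to 0.15 for Stat5a and -0.27 to 0.26 for Stat2, but -0.83 to 0.56 for Stat4, whose interval in the paired fit was -0.31 to 0.04. In DMF + GSH against DMF, 1 of 6 members was called beside 22.3% of all genes, and 3 of 6 beside 41.5% in the paired fit. Both comparisons share the DMF + GSH libraries, and those of DMF and of Ctrl each enter 2 comparisons.

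**Figure D3:**
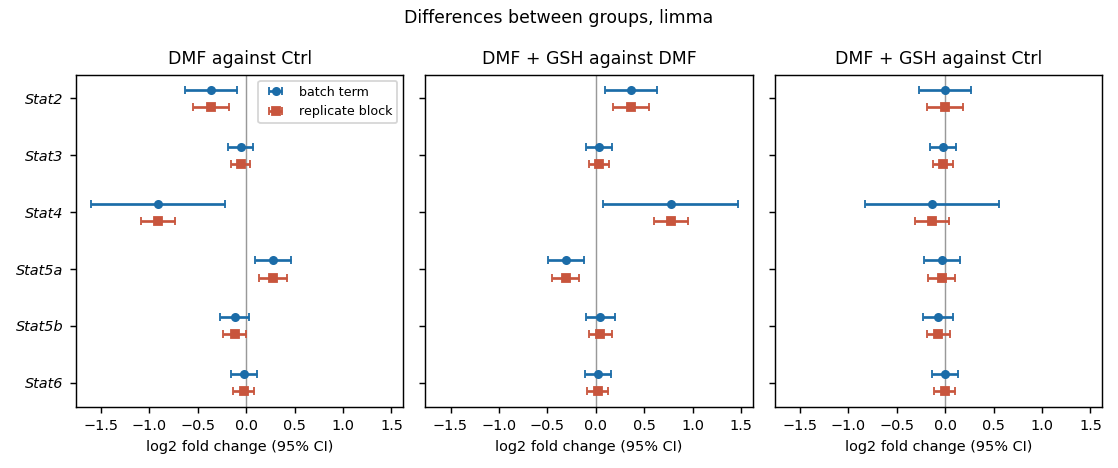
Log2 fold changes with 95% confidence intervals from limma (circles with the batch term, squares with the replicate block) for the 6 STAT genes in the 3 comparisons. The interval of Stat4 narrows with the block, and the intervals of all members include 0 in DMF + GSH against Ctrl.

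The balance of STAT5 to STAT3, which act against each other at Il17, was followed as the log2 ratio of Stat5a and Stat5b together to Stat3. In replicates 1, 2 and 3 it was -0.17, -0.32 and -0.34 (Ctrl), -0.12, -0.37 and -0.08 (DMF) and -0.31, -0.35 and -0.27 (DMF + GSH). DMF replicate 2 had the lowest value of all, so the groups overlapped. The difference of DMF from Ctrl was 0.09 (two-sided exact permutation test, p = 0.4) and that of DMF + GSH from DMF was -0.12 (p = 0.4, exact). The smallest p that this design allows is 0.1.

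Over the 9 libraries, with the mean of each replicate number subtracted, Stat4 correlated with Stat3 (Pearson r 0.92) and Stat2 (0.88) and inversely with Stat5a (-0.85). All members share libraries, and the group differences described above enter these values, which are given as description. The genes most like Stat4 were Msn (moesin, which links membrane and cytoskeleton, 0.999), Zc3hav1 (an antiviral zinc finger protein) and Mxd4. For Stat5a they were Sphk2 (a sphingosine kinase, 0.994), Abl2 and Tatdn2, and for Stat2 Cecr5, Ensa and Hnrnpa3 (0.991 to 0.996). For Stat3 they were Fam46c, Ndst1 and Zfp68, for Stat5b Dag1, Tbc1d14 and Galnt6, and for Stat6 Syce2, Zc3h4 and Gm20667. The r of these last 9 genes ran from 0.969 to 0.988.

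Genes before and after the STATs were counted from 9 lists written from general knowledge, with earlier results of these data known. Of their 96 genes, 70 passed the filter. With DMF, 10 of the 70 rose and 22 fell, beside 14.6% and 13.3% of all genes tested. Both counts moved when 1 library was left out. Leaving out Ctrl replicate 1 gave 4 and 6, Ctrl replicate 2 gave 6 and 11, DMF replicate 1 gave 1 and 2, and DMF replicate 3 gave 5 and 9. Over all 11599 genes, these fits gave 330 and 298, 609 and 553, 42 and 68, and 465 and 488, in the same order. In the paired fit 14 rose and 30 fell, beside 23.7% and 21.4% of all genes. These shares of all genes are the background for each list below where all libraries were used. A count without 1 library has the all-gene counts of the same fit as its background. In DMF + GSH against DMF the background with all libraries was 9.99% that rose and 12.4% that fell. In the paired fit it was 2308 and 2506 of 11599 genes. With batch, it was 8 and 7 without DMF replicate 1 and 57 and 50 without DMF replicate 3. Without DMF + GSH replicate 1 it was 5 and 5, and without DMF + GSH replicate 2 it was 68 and 75. Of the 96 genes, 13 stand in 2 lists.

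Of the 4 JAK kinases, 3 fell with DMF and 0 rose (median log2 fold change -0.33, against 0.01 over all genes). Jak2 was 2479 ± 191 in Ctrl and 1786 ± 130 with DMF (log2 fold change -0.47 ± 0.0950, limma, adjusted p 0.00911). Jak3, the partner of the common γ chain of the IL-2 receptor, was 7028 ± 482 in Ctrl and 5389 ± 325 with DMF (adjusted p 0.00933), and Jak1 7273 ± 667 and 6019.9 ± 413 (adjusted p 0.0479). In DMF + GSH against DMF, Jak2 and Jak3 rose (limma, adjusted p 0.0135 and 0.0161), while Jak1 was not called (0.0828 with batch and 0.00122 with the replicate block). Tyk2 did not pass in either comparison. The count of JAKs that fell with DMF was 0 without Ctrl replicate 1 or DMF replicate 1 and 1 without DMF replicate 3, against 3 in each paired fit without 1 library. The count that rose with DMF + GSH against DMF was 0 when DMF replicate 1 or 3 or DMF + GSH replicate 1 or 2 was left out, against 3 in each paired fit.

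Of 24 receptor chains that feed the STATs, 19 were tested, and 9 fell and 2 rose with DMF (median -0.24), or 10 and 3 in the paired fit. In the paired fits without 1 library, 9 to 10 fell and 2 to 3 rose. With batch, the count that fell was 2 or 4 when Ctrl replicate 1 or 2 was left out and 0 or 3 when DMF replicate 1 or 3 was. The count that rose was 1 when Ctrl replicate 2 was left out and 0 when Ctrl replicate 1 or DMF replicate 1 or 3 was. Those with the smallest adjusted p were Ifngr1 and Il7r (both 0.00649, limma) and Il6ra (0.00775). Il7r, the IL-7 receptor, went from 1535 ± 129 in Ctrl to 759 ± 207 with DMF, Ifngr1 from 2285 ± 144 to 1291 ± 298, and Il6ra from 717 ± 221 to 424 ± 96.4. The 2 that rose were Il2ra, the high-affinity chain of the IL-2 receptor, and Il12rb1. Il2ra went from a range of 7067 to 11612 in Ctrl to 13025 to 20545 with DMF (log2 fold change 1.05 ± 0.258, limma, adjusted p 0.0170). Ifngr1, Il7r and Il6ra had higher means with DMF + GSH than with DMF, and Ifngr1 and Il7r passed the test (limma, adjusted p 0.0134 and 0.0167). Il6ra did not with batch (0.0599) and did with the replicate block (0.00227). In this comparison 5 receptor chains rose and 2 fell, beside 9.99% and 12.4% of all genes. The share that fell was near that background. The 2 were Il2ra and Il12rb1 (limma, adjusted p 0.0179 and 0.0224). In the paired fit 9 rose and 3 fell, beside 2308 and 2506 of all 11599 genes. In the paired fits without 1 library, 7 to 9 rose and 2 to 4 fell. With batch, 0 rose and 0 fell when DMF replicate 1 or 3 or DMF + GSH replicate 1 or 2 was left out.

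Among 17 inhibitors (SOCS and PIAS proteins and phosphatases), 3 rose and 3 fell with DMF (median 0.06), and 11 were not called. These counts were near the background of 14.6% and 13.3% of all genes. In the paired fit 6 rose and 4 fell, beside 23.7% and 21.4% of all genes. In the paired fits without 1 library, 3 to 6 rose and 3 to 4 fell. With batch, 0 rose and 0 fell without any 1 of Ctrl replicates 1 or 2 or DMF replicates 1 or 3. Without DMF + GSH replicate 1, 0 rose and 2 fell. Those that rose in the batch fit of all libraries were Ptpn11, Cish and Socs4 (limma, adjusted p 0.0360, 0.0479 and 0.0499996). Socs3, which STAT3 induces and which blocks IL-6 signalling, went from 1109 ± 326 to 555 ± 121 (log2 fold change -0.98 ± 0.263, limma, adjusted p 0.0228). Pias3, an inhibitor of STAT3, went from 238 ± 24.8 to 171 ± 31.7 (adjusted p 0.0305), and Ptprc, which encodes CD45, from 22322 ± 2411 to 17180.4 ± 1621 (adjusted p 0.0326). With DMF + GSH against DMF, Pias3 and Ptprc rose (limma, adjusted p 0.0159 and 0.0387), Cish, which STAT5 induces, fell (0.0315), and Socs3 did not pass with batch (0.0585) but did with the replicate block (2.83e-07). The paired fit had 4 inhibitors that rose and 5 that fell here. Without 1 library, the paired fits had 3 to 4 that rose and 2 to 6 that fell. With batch 0 rose and 0 fell when DMF replicate 1 or 3 or DMF + GSH replicate 1 or 2 was left out. Leaving out DMF replicate 2 gave 4 that rose and 4 that fell, and DMF + GSH replicate 3 gave 4 and 3. Of 17 cytokine ligands only 5 were tested, and of these Ifng rose and Il21 and Lif fell with DMF (1 fell without DMF replicate 1). Il21, which signals through STAT3, went from 437 ± 97.1 to 178 ± 64.4 (log2 fold change -1.34 ± 0.157, limma, adjusted p 0.00248). Ifng, the type 1 cytokine, went from 106 ± 41.5 to 741 ± 165 (log2 fold change 2.87 ± 0.254, limma, adjusted p 0.00124), while a blocking antibody to its product was in the medium. Lif went from 114 ± 61.4 to 59.3 ± 26.9 (adjusted p 0.00722), and its groups overlapped.

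Known targets were listed by the STAT that binds them. Of 12 STAT3 targets, 8 fell and 0 rose with DMF (median -0.54), although Stat3 itself was not called. Next to Il21, these included Maf, a transcription factor of type 17 cells (3257 ± 238 to 2027 ± 408, log2 fold change -0.70 ± 0.0965, limma, adjusted p 0.00423), and Hif1a (6189 ± 394 to 4901 ± 71.3, adjusted p 0.00743). With DMF + GSH against DMF, 6 of the 12 rose and 0 fell, beside 9.99% and 12.4% of all genes (9 and 0 in the paired fit). Without DMF replicate 1 or DMF + GSH replicate 1 the count that rose was 0, and without DMF replicate 3 or DMF + GSH replicate 2 it was 3, against 8 to 9 in the paired fit without 1 library. With DMF, the count that fell was 3 or 5 when Ctrl replicate 1 or 2 was left out and 2 or 4 when DMF replicate 1 or 3 was, against 8 to 9 in the paired fit. Of 10 STAT5 targets, 4 rose and 0 fell with DMF (median 0.27), and 4 fell and 0 rose with DMF + GSH against DMF (6 and 1 in the paired fit). Ccnd2, a cyclin, went from 4562 ± 191 to 6670.2 ± 834 (log2 fold change 0.54 ± 0.0906, limma, adjusted p 0.00640). Lta, which encodes lymphotoxin α, went from a range of 220 to 307 in Ctrl to 569 to 1842 with DMF (log2 fold change 2.11 ± 0.394, adjusted p 0.00739). In the paired fit 5 STAT5 targets rose and 1 fell. With batch, the count that rose was 1 without Ctrl replicate 1, 2 without Ctrl replicate 2 or DMF replicate 3 and 0 without DMF replicate 1. In each paired fit without 1 library, 5 rose. The count that fell with DMF + GSH against DMF was 0 with batch without any 1 of DMF replicates 1 or 3 or DMF + GSH replicates 1 or 2. It was 5 to 7 in the paired fits without 1 library.

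Of 7 STAT4 targets tested, 2 rose and 0 fell with DMF (median 0.11). These were Ifng and Tbx21, which encodes T-BET, the regulator of type 1 T cells (270 ± 110 to 514 ± 132, log2 fold change 0.98 ± 0.155, limma, adjusted p 0.00564). Furin fell as well in the paired fit. With batch, 1 target rose without DMF replicate 1, and 1 fell without DMF + GSH replicate 3. In the paired fits without 1 library, 2 to 3 rose and 1 to 2 fell. Of 13 genes around STAT2 (its partner Irf9 and interferon-stimulated genes), only 4 passed the filter and the other 9 had a mean under 10. Of those 4, Bst2, which encodes the antiviral protein tetherin, rose with DMF (464 ± 69.8 to 688 ± 57.1, log2 fold change 0.57 ± 0.118, limma, adjusted p 0.00977). Without DMF replicate 1 the count of this list that rose was 0, against 1 in each paired fit without 1 library. The count that fell was 1 without Ctrl replicate 3 and 2 without DMF replicate 2. Irf9 had a log2 fold change of -0.34 that passed with the replicate block (limma, adjusted p 0.000576) and not with batch (0.105), as did Irf7. Of 5 STAT6 targets 3 were tested, and 0 were called with DMF (in the paired limma fit Gata3 and Gfi1 fell, adjusted p 0.00811 and 0.0422). With batch, 1 fell without Ctrl replicate 3. In DMF + GSH against Ctrl, 0 of the 70 genes were called in either fit, beside 0 of all 11599 genes with batch and 4 with the replicate block.

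**Figure D4:**
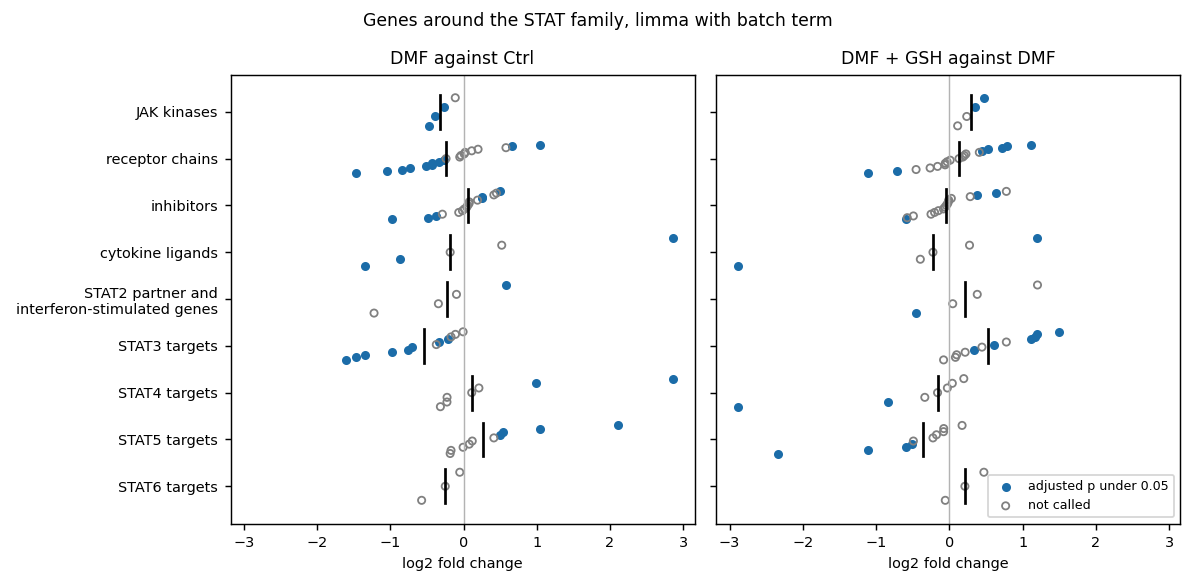
Log2 fold changes (limma with batch) of the tested genes of 9 lists in DMF against Ctrl and in DMF + GSH against DMF (filled points have an adjusted p under 0.05, open points do not, and black bars are list medians). STAT3 targets lie mostly below 0 with DMF and above 0 with DMF + GSH against DMF, and STAT5 targets the other way.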

How the data were processed

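Poly(A) RNA of 9 murine Tc17 libraries was sequenced by the authors as single reads of 50 bases, aligned to GRCm38 (Ensembl annotation) with STAR 2.4.0b, as the submitters' processing notes also give, and counted per gene with featureCounts. The labels name Trizol and an RNA integrity number above 9, and the methods Extrazol and a number above 8. The deposited signal per gene is the read count divided by a size factor for its library (normalized count). The authors' own fold changes and p-values in the same table were not used. All values above 0 (100%) were whole reads once divided by the library's step (tolerance 0.01), and depth was 7671772 to 11589246 reads in Ctrl, 10382638 to 12669991 with DMF and 9753478 to 14511926 with DMF + GSH.

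Groups were compared with limma-trend (limma 3.58.1, R 4.3.3) on log2 of the normalized count plus 1, with terms for group and batch, over 11599 of 41388 genes with a mean of at least 10, with Benjamini-Hochberg adjustment over all of them. The step had been planned with edgeR for raw counts, and edgeR 4.0.16 was run on the recovered reads as an alternative, as the deposited values were normalized. Called genes have an adjusted p under 0.05. The method was tested on simulated counts that held no batch or replicate effect. That test does not show how such effects bear on the calls. A fold change on log2(value + 1) understates changes of low genes. The replicate numbers of the labels pair the samples, as deviations from the group means had a correlation across genes of 0.447 to 0.578 between same-numbered libraries (9 pairs) and of at most -0.0621 between the others. All 6 members are named, of each list at most 3 called genes with the smallest adjusted p, and for each member the 3 genes with the highest r. Genes beyond this rule (Il12rb1, Tyk2, Furin, Cish, Ptpn11, Socs4, Irf9, Irf7, Gata3 and Gfi1) were named after their values were seen. The members and lists were chosen with earlier results of these data known. Positions and exon lengths come from GENCODE vM21, promoters from RefSeq, and 50-base stretches from GENCODE transcripts. Alternatives were other pseudocounts, minimum means, TMM scaling, no batch term, a replicate block, only the 6 libraries compared, edgeR and each library left out. Some genes are not reported here. Python 3.11.15, pandas 2.3.3, NumPy 2.4.6, SciPy 1.17.1 and Matplotlib 3.10.9 were used.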

Additional observations from a re-analysis of the deposited data

How the results depend on the processing

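With DMF, 2 members were called. The count was 1 without a minimum mean (Stat4 in place of Stat2 and Stat5a), 0 with only the 6 libraries compared, 3 (with Stat4) with the replicate block, without a batch term and with edgeR and batch (adjusted p of Stat4 0.0496 and 0.0487 in the last 2), and 0 to 3 without 1 library (0 without Ctrl replicates 1 or 2 or DMF replicates 1 or 3), against 3 to 4 with the block. For DMF + GSH against DMF, where 1 was called, it was 3 with the replicate block in limma and in edgeR, 0 with the 6 libraries, 0 to 3 without 1 library and 3 in each of these fits with the block. For DMF + GSH against Ctrl it was 0 under all alternatives run. No alternative turned Stat2, Stat4 or Stat5a around in DMF against Ctrl or in DMF + GSH against DMF. Across all genes, the called number of 3242 with DMF fell to 110 without DMF replicate 1 and rose to 5224 with the block, and the 2592 of DMF + GSH against DMF fell to 10 without DMF + GSH replicate 1. The cause of these shifts was not tested.

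Signs turned where differences were near 0, and also for Stat4 in DMF + GSH against Ctrl, where the log2 fold change was -0.14. Stat6 ran from -0.0613 to 0.00816 with DMF without 1 library, and with DMF + GSH against DMF from -0.0126 to 0.0463. In DMF + GSH against Ctrl, TMM gave 0.00304 for Stat2 and 0.00051 for Stat6, and edgeR with the replicate block 4.88e-05 for Stat6. Without 1 library, that comparison ran from -0.109 to 0.0863 for Stat2, -0.408 to 0.147 for Stat4, -0.0953 to 0.0351 for Stat5a and -0.0402 to 0.0267 for Stat6.

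The log2 ratio of Stat5a and Stat5b to Stat3 differed by 0.09 with DMF and by -0.12 with DMF + GSH against DMF. The replicate block leaves these means at 0.0878 and -0.123 by construction, while replicate 2 alone had the opposite sign in both (-0.05 and 0.01). Without 1 library they ran from 0.03 to 0.18 and from -0.21 to -0.07. The genes of the lists that rose numbered 1 to 15 without 1 library, and those that fell 2 to 31. Per kb of protein-coding transcript the Ctrl levels were 138 for Stat2, 1050 for Stat3, 450.5 for Stat5a and 748 for Stat6. At these depths the lowest member count was 184 reads (Stat4 in DMF replicate 3).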
